A study of Mus musculus with 9 samples.

Results

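Matricellular proteins are secreted into the extracellular matrix to signal to cells rather than to bear load. They are sparse in the resting adult heart and are known to be made in quantity after myocardial infarction, where they act through integrins, syndecans and growth factor binding on inflammation, scar assembly and vessel growth. Of the 23747 genes in the tables, 9 were chosen by name as members of this group: tenascin-C (Tnc), periostin (Postn), the collagen-binding protein osteonectin (Sparc), the thrombospondins Thbs1, Thbs2 and Thbs4, the CCN family members Ccn1 (Cyr61) and Ccn2 (connective tissue growth factor), and fibronectin (Fn1), the main glycoprotein of the provisional matrix that forms in a wound.

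Single-nucleus RNA sequencing (sNuc-seq) was performed on frozen hearts of C57BL/6 mice, supplied at 8 weeks of age, with 3 mice in each of 3 groups. Sham mice were given the vehicle, sodium carboxymethyl cellulose, by gavage for 7 days and were operated on without ligation. I/R mice were given the same vehicle for 7 days, then 30 min of ligation of the left anterior descending artery and 24 h of reperfusion. SBP mice were given Shexiang Baoxin Pill, which the labels call MUSKARDIA, during the 7 days that preceded an identical I/R procedure. By the study's results text, the tissue came from the part of the heart below the ligation. No group received SBP without I/R, and only 1 time after reperfusion was sampled. The mice are numbered 1 to 3 within each group, as in the labels.

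The 9 libraries held 49171 nuclei, from 4576 to 6418 per mouse, and 10329520 to 18205985 unique molecular identifiers (UMIs, each a captured transcript) per mouse. The median nucleus held 1540 to 2031 UMIs. Any pair of libraries shared 4 to 14 barcodes. By marker genes, nuclei were named fibroblast-like (14146), endothelial-like (13454), cardiomyocyte-like (10533) and myeloid-like (9176), and these are called by the cell type below. T cells (618), B cells (335), smooth muscle cells and pericytes (158) and Schwann cells (122) were not tested. Nor were 544 nuclei left unnamed. Among these, a cluster of 391 nuclei led by Flt3, Htr7 and Ciita held 7 of 10 myeloid markers, at a mean log2 fold of -0.45. Several fibroblast clusters came mainly from a single mouse: sham mouse 2 gave 78.5% of a cluster, I/R mouse 3 gave 89.2% of another and I/R mouse 1 gave 92.3% of another. Of the myeloid nuclei of I/R mice, 1533 of the 2047 in a cluster led by Gpnmb were from 1 mouse.

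The promoters of Tnc and Postn, which rose in fibroblasts, and of Ccn1, a textbook target of the YAP/TEAD pair of regulators, are given first to show the letters around inducible start sites. The sequences are the 250 bases before the start site, from RefSeq on GRCm38.p6, read 5′ to 3′ on the strand of the gene, and capitals mark motif matches. Tnc is shown for chr4:64047016-64047265 (minus strand), Postn for chr3:54360857-54361106 (plus strand) and Ccn1 for chr3:145649986-145650235 (minus strand).
Tnc: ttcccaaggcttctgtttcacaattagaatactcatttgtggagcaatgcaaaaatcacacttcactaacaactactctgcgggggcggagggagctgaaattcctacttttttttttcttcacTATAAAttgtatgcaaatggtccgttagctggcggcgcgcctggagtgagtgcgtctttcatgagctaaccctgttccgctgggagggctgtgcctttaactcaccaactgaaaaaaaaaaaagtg
Postn: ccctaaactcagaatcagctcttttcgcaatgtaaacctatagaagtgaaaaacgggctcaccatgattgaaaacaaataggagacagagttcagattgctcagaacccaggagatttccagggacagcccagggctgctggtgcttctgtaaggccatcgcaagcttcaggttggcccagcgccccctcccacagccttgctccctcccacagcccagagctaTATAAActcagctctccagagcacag
Ccn1: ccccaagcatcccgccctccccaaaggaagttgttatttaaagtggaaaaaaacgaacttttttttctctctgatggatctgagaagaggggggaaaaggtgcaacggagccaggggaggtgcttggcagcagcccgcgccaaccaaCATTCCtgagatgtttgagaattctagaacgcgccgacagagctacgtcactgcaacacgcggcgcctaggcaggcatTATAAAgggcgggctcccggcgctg
The TATA motif (TATAAA) began 126 bases before the start shown in Tnc, 26 in Postn and 25 in Ccn1. RefSeq lists another start for Tnc, with the motif 205 bases before it, and for Postn, with none. The TEAD motif (GGAATG), read on the other strand, lay 103 bases before the start of Ccn1. Both strands were searched, and of 32851 promoters of this length 12.4% held the TATA motif and 12.6% the TEAD motif. Thbs4 held a pair of overlapping TEAD matches, 197 and 192 bases before its start, and Thbs2 held a TATA match on the other strand, 126 bases before its start. The window of Sparc, which lies inside the annotated gene, at an internal start, held neither. No member with a sequence held the AP-1 motif (TGANTCA), which 6.75% of promoters held, or a CArG box, which 1.47% held. No promoter sequence was matched for Thbs1, Ccn2 or Fn1. A match is a run of letters and not a measured binding site.

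On GRCm38, Tnc spans chr4:63959785-64047015, Postn chr3:54361109-54391037, Sparc chr11:55394500-55423183 and Fn1 chr1:71585520-71653200. The thrombospondin genes lie at chr2:118111876-118127133 (Thbs1), chr17:14665500-14694235 (Thbs2) and chr13:92751590-92794818 (Thbs4), and the CCN genes at chr3:145646976-145649981 (Ccn1) and chr10:24595442-24598683 (Ccn2). An annotated gene on the opposite strand overlaps Tnc (8030451A03Rik), Fn1 (Apol7d), Thbs1 (Gm29233) and Ccn2 (Gm15270), and how the counting used strand is not given in the sources used here.

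In fibroblasts, the main matrix-producing cells of the heart, Tnc, Postn, Sparc and Fn1 rose after I/R, with Tnc going from a mean of 3.42 ± 1.88 to 432 ± 106 CPM (SD, n = 3). UMIs were summed per mouse and cell type and are given as CPM, UMIs scaled to a common library size by trimmed mean of M values (TMM). Fold changes are on the log2(CPM + 1) scale, with the standard error (SE) and a Benjamini-Hochberg adjusted p from limma over all genes of the cell type, and a gene was called at an adjusted p of at most 0.05 with a log2 change over 0.25 in size. Such sums cannot tell a smaller share of expressing cells from less RNA per cell. Of the 9 genes, 4 were called higher in I/R than in sham fibroblasts, where 11.5% of 13076 tested genes were called in either direction. The median log2 fold change was 0.98 over the 9 genes and 0.01 over all genes. In I/R against sham the groups did not overlap for 4 of 9 members and 26.9% of all genes. In SBP against sham they did not for 6 of 9 members and 27.1% of all genes.

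Tnc encodes a hexameric glycoprotein that loosens the adhesion of cells to fibronectin and is nearly absent from the healthy adult myocardium. It stood at 3.12, 5.43 and 1.72 CPM in the sham mice, at 544, 419 and 333 CPM in the I/R mice and at 345, 626 and 567 CPM in the SBP mice. Every I/R and SBP mouse lay above every sham mouse, and the I/R and SBP values overlapped. The log2 fold change was 6.67 ± 0.32 for I/R against sham (adjusted p = 2.9e-06) and 6.90 ± 0.32 for SBP against sham (adjusted p = 2.9e-06). These contrasts share the sham mice, and both calls held without any single mouse.

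Postn, which helps collagen fibres to crosslink and is a classical product of activated cardiac fibroblasts, stood at 29.0, 61.6 and 24.7 CPM in sham, 579, 255 and 159 CPM in I/R and 193, 439 and 248 CPM in SBP fibroblasts. The sham mice were the lowest in every case, and I/R mouse 1 was the highest. On the log2 scale Postn rose by 2.98 ± 0.50 for I/R against sham (adjusted p = 0.0054) and 2.93 ± 0.50 for SBP against sham (adjusted p = 0.0088).

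Fn1, whose fibrils carry cells into a wound, varied most among the I/R mice. It stood at 18.7, 38.7 and 22.7 CPM in sham, 969, 287 and 118 CPM in I/R and 183, 446 and 206 CPM in SBP fibroblasts. The groups did not overlap sham, although I/R mouse 1 held several times the level of I/R mouse 3. Its log2 change was 3.60 ± 0.69 for I/R against sham (adjusted p = 0.012) and 3.28 ± 0.69 for SBP against sham (adjusted p = 0.027). The SBP call was lost with limma-voom (adjusted p = 0.064), without a filter on low values (0.087) and without sham mouse 1 (adjusted p = 0.095), sham mouse 3 (0.068), SBP mouse 2 (0.11) or SBP mouse 3 (0.063), and the I/R call was kept without any single mouse.

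Sparc, a collagen chaperone and counter-adhesive protein, was present in every group and rose by a smaller factor. It stood at 171, 198 and 197 CPM in sham, 450, 378 and 306 CPM in I/R and 308, 415 and 332 CPM in SBP fibroblasts. No I/R or SBP mouse lay within the sham range. The change on the log2 scale was 0.98 ± 0.17 for I/R against sham (adjusted p = 0.0036) and 0.89 ± 0.17 for SBP against sham (adjusted p = 0.0095), a call that was lost without SBP mouse 2 (adjusted p = 0.063). In SBP against sham, the same 4 of 9 genes were called, beside 5.89% of all genes.

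**Figure D1:**
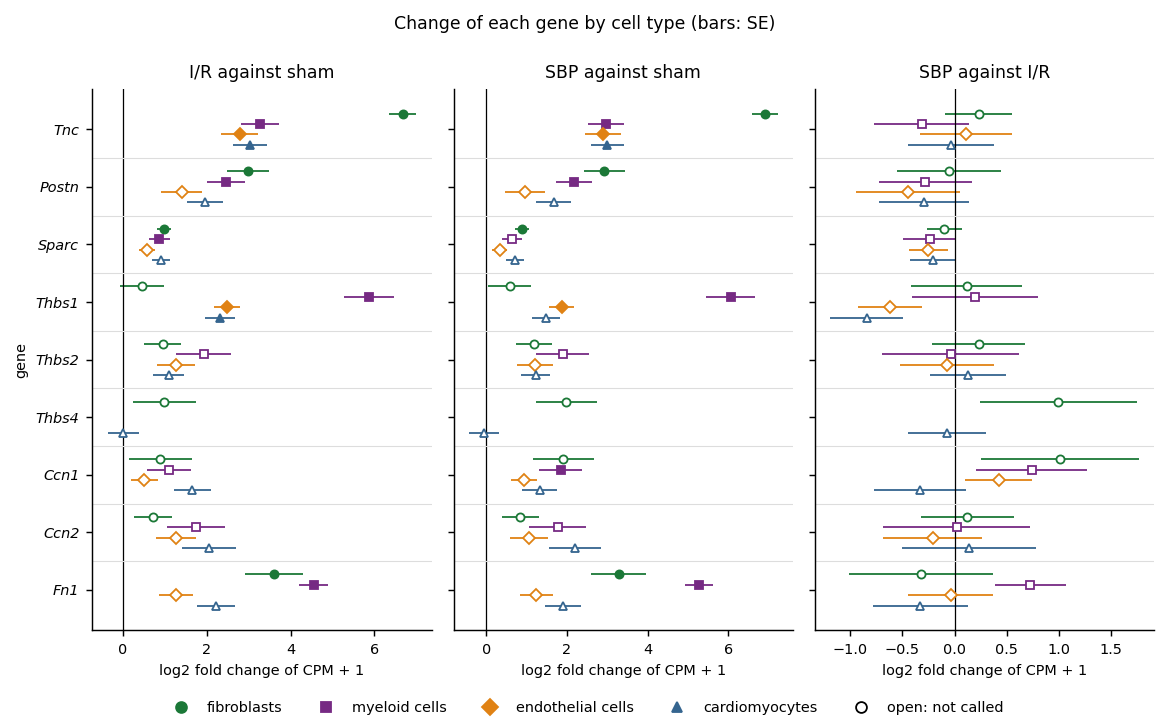
Log2 fold change on the log2(CPM + 1) scale of each gene in I/R against sham, SBP against sham and SBP against I/R, by cell type, with bars for the standard error and open symbols for changes that were not called. Fibroblast Tnc has the largest value of the plot, 6.67 for I/R against sham and 6.90 for SBP against sham.

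The thrombospondins, which bind integrins, and of which Thbs1 can release TGF-beta from its latent form, were not called in fibroblasts. Thbs1 stood at 52.2, 15.9 and 71.4 CPM in sham and at 54.4, 84.7 and 34.8 CPM in I/R fibroblasts, which overlapped in part (log2 fold change 0.46 ± 0.53, adjusted p = 0.65). Thbs2, an inhibitor of vessel growth that also limits matrix turnover, was at 29.0, 46.7 and 83.8 CPM in sham, 52.0, 102 and 159 CPM in I/R and 140, 87.7 and 112 CPM in SBP mice. All SBP values lay above sham, but neither I/R (0.95 ± 0.44, adjusted p = 0.22) nor SBP (1.18 ± 0.44, adjusted p = 0.17) passed the test. Without I/R mouse 1, Thbs2 was called in I/R (adjusted p = 0.0497). Thbs4, a thrombospondin of tendon and stressed heart, was low throughout, with 1.79, 1.45 and 0.687 CPM in sham, 7.74, 7.34 and 0.238 CPM in I/R and 2.82, 10.995 and 14.5 CPM in SBP fibroblasts. I/R mouse 3 stood below the sham range, with 1 UMI, and the other I/R mice above it. Thbs4 was not called in I/R (0.99 ± 0.75, adjusted p = 0.46) or SBP (1.98 ± 0.75, adjusted p = 0.17), and was called in both without I/R mouse 3 (adjusted p = 0.035 and 0.027).

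The CCN proteins, immediate early products of stretched or injured cells, were not called in fibroblasts either. Ccn1 stood at 4.91, 12.7 and 72.8 CPM in sham, 37.7, 40.4 and 23.1 CPM in I/R and 74.4, 55.7 and 73.0 CPM in SBP fibroblasts. Sham mouse 3 was as high as the SBP mice and far above the other sham mice. Neither 0.90 ± 0.75 for I/R (adjusted p = 0.52) nor 1.91 ± 0.75 for SBP (adjusted p = 0.20) on the log2 scale was called, and both were called without sham mouse 3 (adjusted p = 0.015 and 0.0041). Ccn2 stood at 58.9, 22.4 and 96.8 CPM in sham and 111, 64.6 and 82.6 CPM in I/R fibroblasts, overlapping, with a log2 fold change of 0.72 ± 0.45 (adjusted p = 0.36). Ccn2 in SBP fibroblasts, at 104, 105 and 70.7 CPM, gave 0.84 ± 0.45 against sham (adjusted p = 0.34), and Thbs1, at 90.4, 53.5 and 42.2 CPM, gave 0.57 ± 0.53 (adjusted p = 0.61).

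Marker lists fixed for the cell types also moved in fibroblasts. Of 9 markers of activated fibroblasts, 6 rose in I/R fibroblasts, and their summed level ranged from 233 to 476 CPM in sham and from 589 to 1052 CPM in I/R. All 5 cell cycle markers rose, from 11.7 to 31.9 CPM in sham to 237 to 547 CPM in I/R. Of the 6 cardiomyocyte markers all 6 fell in fibroblasts, from 4557 to 5479 CPM in sham to 1498 to 2270 CPM in I/R, and 2 of 10 myeloid markers rose (Csf3r and C1qb; 383 to 410 CPM in sham, 490 to 746 CPM in I/R). None of these markers was at 0 in any group, and their part in the results for the 9 genes was not tested.

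Counted by nucleus, fibroblasts with a UMI of Tnc made up 0.280% ± 0.223 of sham and 8.29% ± 3.93 of I/R nuclei (SD, n = 3 mice). For this, nuclei were thinned to 1000 UMIs, and those with fewer were left out, as in all thinned shares below. Over all fibroblast nuclei, before thinning, the shares were 0.504% and 13.7%. The corresponding shares after thinning were 2.17% and 11.5% for Postn, 16.0% and 24.0% for Sparc, and 2.11% and 16.5% for Fn1. In these 4 genes the I/R mice all lay above the sham mice, and the two-sided exact permutation p was 0.1, the smallest that 3 mice against 3 can give. In the fibroblast sums 26.9% of all genes showed no overlap, and this was not computed for shares of nuclei. Among T and B cells, which should not express Tnc, 0 of 400 sham nuclei had a UMI of Tnc, against 5.47% of 311 I/R nuclei (exact 95% interval 3.22% to 8.61%) at a median of 995 UMIs against 2000 in I/R fibroblasts. The 0 of 400 allows a level of up to 6.61 CPM at 3 counts, and intervals and this limit cover counting error only.

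Within the fibroblasts, which were clustered without the 9 genes, 1 cluster of 1549 nuclei was named activated fibroblast-like. It held 8 of 9 activated fibroblast markers and all 5 cell cycle markers, and its leading genes included the markers Cthrc1 and Ltbp2 of the former list and Top2a and Diaph3 of the latter. The mean log2 fold of its markers over the rest of the fibroblasts was 3.89 for the cell cycle list, which was not used for names, and 2.56 for the activated list. A higher clustering resolution gave a cluster of 1137 nuclei with 8 of the 9 activated markers and a cycling cluster of 444 nuclei led by Top2a, Diaph3 and Knl1. After doublets were removed, the activated cluster of 1549 nuclei held 7 sham, 891 I/R and 650 SBP nuclei. Each I/R mouse gave 128 to 387 of them and each SBP mouse 143 to 256. Another cluster of 281 nuclei, which held 6 of the 9 activated markers but was led by cardiomyocyte genes such as Tnnc1 and Actc1, was not given the name. It made up 2.50% of sham, 2.04% of I/R and 1.53% of SBP fibroblasts. Sham mice had too few activated nuclei for a test. These nuclei were also richer in UMIs, with a median of 3041 in I/R against 1898 in the fibroblasts of no named state.

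In the I/R mice, the activated fibroblasts held most of the UMIs of several of the genes. Their mean share of the fibroblast UMIs was 93.4% for Tnc, 92.5% for Thbs4, 88.5% for Postn and 81.7% for Fn1. Thbs4 rested on 59 UMIs, 52 of them in activated fibroblasts, and I/R mouse 3 gave 1. For Sparc, Ccn2, Ccn1 and Thbs1 the mean share was 58.5%, 53.0%, 44.8% and 40.4%, and for Thbs2 19.98%. Of the fibroblast UMIs of all genes, activated fibroblasts held 1629602 of 3966664 in I/R mouse 1 and 1174297 of 3461589 in I/R mouse 2. In I/R mouse 3 they held 714878 of 4203907. In the SBP mice, the shares were 92.1% for Tnc, 80.0% for Postn, 74.5% for Fn1, 13.7% for Ccn1 and 8.63% for Thbs2. There, activated fibroblasts held 760411 of 3626459 fibroblast UMIs in SBP mouse 1 and 1325128 of 4152290 in SBP mouse 2. In SBP mouse 3 they held 626755 of 3859921. Most UMIs of Tnc and Postn were in these nuclei in both groups, and most of Thbs2 outside them.

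**Figure D2:**
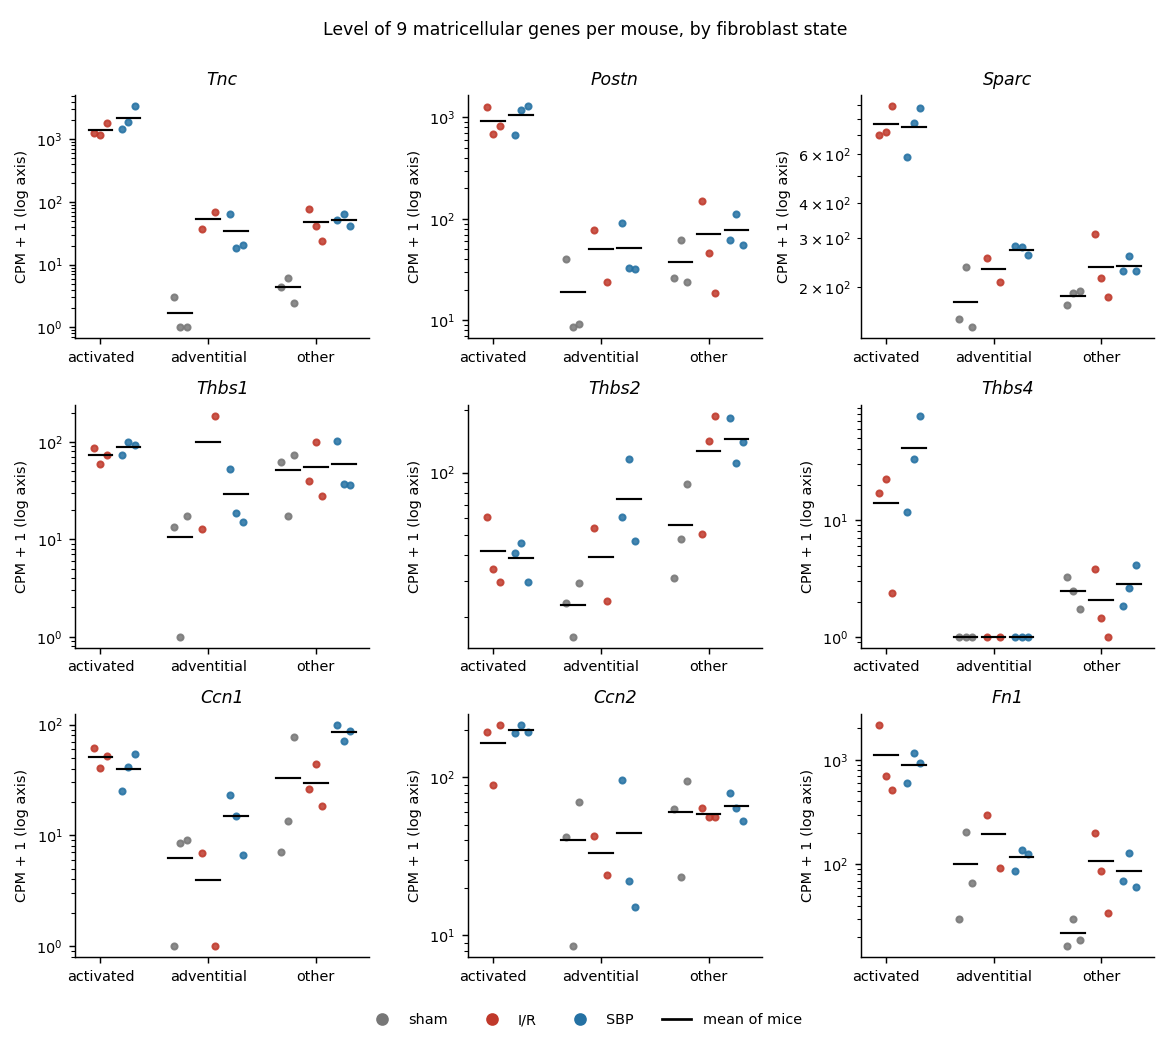
Level of each gene in CPM (log axis, CPM + 1) in activated, adventitial and other fibroblasts, 1 point per mouse, coloured by group, with a bar for the mean of the mice, and activated fibroblasts only for I/R and SBP mice. The activated fibroblasts of the 6 I/R and SBP mice hold 1187 to 3357 CPM of Tnc, and the other fibroblasts 22.6 to 75.8 CPM.

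In activated fibroblasts Tnc reached 1268, 1187 and 1800 CPM in the I/R mice and 1437, 1882 and 3357 CPM in the SBP mice. Postn reached 1254, 686 and 826 CPM in I/R and 667, 1186 and 1284 CPM in SBP mice, and Fn1 2148, 702 and 516 CPM in I/R and 603, 1159 and 941 CPM in SBP mice. The ranges of the I/R and SBP mice overlapped for each of these. SBP against I/R gave log2 changes of 0.58 ± 0.30 for Tnc, 0.17 ± 0.29 for Postn, -0.08 ± 0.58 for Fn1, -0.06 ± 0.18 for Sparc, -0.40 ± 0.30 for Ccn1 and 1.69 ± 1.08 for Thbs4, none of them called. Over all 9916 tested genes, limma called 0 (0%), 360 had an unadjusted p under 0.05 and limma-voom called 0. None of the 9 genes was among the 360.

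Of the I/R activated nuclei with Tnc, 76.3% also held Postn, against 50.3% of those without Tnc, and 85.9% held Fn1 against 59.2%. Nuclei with Tnc were deeper, with a median of 3915 UMIs against 2319, and the part of depth in these shares was not tested. Thbs2 was found in 13.3% of the nuclei with Tnc and in 12.4% of the rest.

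Outside the activated cluster, Tnc was called as well. The other fibroblasts of each group lay in different clusters. A pair of clusters held 45.4% and 33.4% of sham fibroblasts and 0.213% and 0.242% of I/R ones. Another 3 clusters held 24.4%, 27.3% and 17.7% of I/R fibroblasts and at most 0.0910% of sham ones. The cluster led by Egr1, Nr4a1 and Btg2 held 54.0% of SBP and 3.57% of I/R fibroblasts. These are means over mice, and several rest mainly on 1 mouse. Of the 3 I/R clusters, in the order given, I/R mouse 2 gave 58.1% of the nuclei, I/R mouse 3 89.2% and I/R mouse 1 92.3%. Sham mouse 2 gave 78.5% of the sham cluster at 33.4%. In the other fibroblasts Tnc stood at 3.32, 5.18 and 1.46 CPM in sham, 75.8, 40.9 and 22.6 CPM in I/R and 50.1, 63.7 and 40.9 CPM in SBP mice, without overlap to sham, and the I/R log2 fold change was 3.39 ± 0.43 (adjusted p = 0.0042). T and B cells, which should not express it, held 49.1 CPM of Tnc in I/R (plain CPM, pooled over mice, exact Poisson interval 28.6 to 78.7), 31.3 CPM in SBP and 0 UMIs in sham mice. Tnc was the only one of 8 tested members called in other fibroblasts in I/R against sham, beside 3.65% of 12152 genes. In that comparison, 2 of 8 members and 21.2% of all genes showed no overlap. Postn stood at 25.5, 60.3 and 23.1 CPM in sham and 149, 44.8 and 17.7 CPM in I/R mice, which overlapped (0.57 ± 0.70, adjusted p = 0.71), and Fn1 gave 1.98 ± 0.57 (adjusted p = 0.093), called without I/R mouse 3 (adjusted p = 0.016). Thbs2, at 29.9, 47.0 and 86.7 CPM in sham and 49.4, 142 and 187 CPM in I/R mice, gave 1.13 ± 0.51 (adjusted p = 0.26), called without I/R mouse 1 (adjusted p = 0.026). In the adventitial fibroblast-like nuclei (4 of 5 markers, such as Pi16), 2 I/R mice had 20 nuclei or more, and none of 5 tested members was called in I/R against sham (0.31% of 5479 genes called) or SBP against I/R (0.0183%). SBP against I/R in other fibroblasts gave 0 calls of 12152 genes (0%) with limma and 0 with limma-voom, and 433 at an unadjusted p under 0.05, none of them a member.

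In myeloid cells, which in the injured heart are mostly macrophages and infiltrating monocytes, Thbs1 and Fn1 rose by the largest factors, from means of 4.47 to 279 CPM and 16.4 to 413 CPM. Of the 8 tested members 5 were called higher in I/R than in sham, beside 17.8% of 10801 genes called in either direction. They were Fn1, Thbs1, Tnc, Postn and Sparc. The median log2 fold change was 2.20 over the 8 members and 0.03 over all genes. In I/R against sham the groups did not overlap for 6 of 8 members and 34.5% of all genes. In SBP against sham they did not for 7 of 8 members and 34.6% of all genes.

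Thbs1 stood at 9.43, 0.929 and 3.06 CPM in the sham mice, 187, 467 and 183 CPM in the I/R mice and 414, 212 and 274 CPM in the SBP mice. The lowest injured mouse held many times the level of the highest sham mouse. On the log2 scale Thbs1 rose by 5.87 ± 0.60 for I/R (adjusted p = 0.00049) and 6.06 ± 0.60 for SBP against sham (adjusted p = 0.00053), and both calls held without any single mouse. Fn1, which macrophages are known to secrete, stood at 15.1, 24.2 and 9.93 CPM in sham, 322, 644 and 273 CPM in I/R and 632, 608 and 668 CPM in SBP mice. The I/R range enclosed most of the SBP values, and sham lay far below both. The rise of Fn1 was 4.55 ± 0.34 for I/R (adjusted p = 4.2e-05) and 5.28 ± 0.34 for SBP against sham (adjusted p = 1.8e-05). The myeloid sums leave out the unnamed nuclei. In sham mice these held a mean of 8.39% of the heart's Fn1 UMIs (3.86% to 12.9% over the mice), and myeloid cells 5.76%.

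Most Thbs1 UMIs of the heart lay in fibroblasts in sham and in myeloid cells in injured mice. Fibroblasts held 81.1% of the heart's Thbs1 UMIs in sham mice and 18.4% in I/R mice, whereas myeloid cells held 2.27% in sham mice, 67.8% in I/R mice and 61.6% in SBP mice. These shares also follow the number of myeloid nuclei, which was 363 to 2178 per mouse. The I/R effect on Thbs1 was larger in myeloid cells than in fibroblasts by 5.41 ± 0.39 on the log2 scale (adjusted p = 5.2e-05), and the SBP effect by 5.49. The reverse held for Tnc, with a difference of -3.39 ± 0.30 (adjusted p = 1.0e-04). For Fn1 the difference of 0.95 ± 0.63 did not pass (adjusted p = 0.39), passed without I/R mouse 1 (1.85, adjusted p = 0.011) and turned to -0.35 with cell types from marker scores (adjusted p = 0.81). Of the 8 members tested for this difference, 2 were called in each contrast, beside 9.63% of 10434 genes for I/R and 7.05% for SBP.

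By plain CPM, without TMM scaling, the Thbs1 level of myeloid cells was 465% of that of the fibroblasts of the same mouse in I/R (336% to 539% over the mice), and Fn1 160% (32.4% to 237%). Tnc was at 6.85% of the fibroblast level, below the summed 7 fibroblast markers (13.7%) and Col1a1 with Col1a2 (11.2%), which define another cell type. In T cells the same values were 7.47% for Tnc and 22.2% for the 7 markers, and 136% for Thbs1. T and B cells together held 46.2 CPM of Thbs1 in I/R (exact Poisson interval 26.4 to 75.1) and 171 CPM of Fn1 (130 to 220), against 11.01 and 4.40 CPM in sham.

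Shares of myeloid nuclei with a UMI of Thbs1, thinned to 1000 UMIs, were 0.457% ± 0.343 in sham and 16.9% ± 9.48 in I/R (0.683% and 24.1% before thinning), and with Fn1 1.05% and 19.2%. The I/R mice did not overlap sham (two-sided exact permutation p = 0.1, the smallest possible). In the myeloid sums 34.5% of all genes showed no overlap, and this was not computed for shares of nuclei. Among the T and B cells of I/R mice, 5.14% of nuclei held Thbs1 (exact interval 2.97% to 8.22%) and 15.8% held Fn1 (11.9% to 20.3%).

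**Figure D3:**
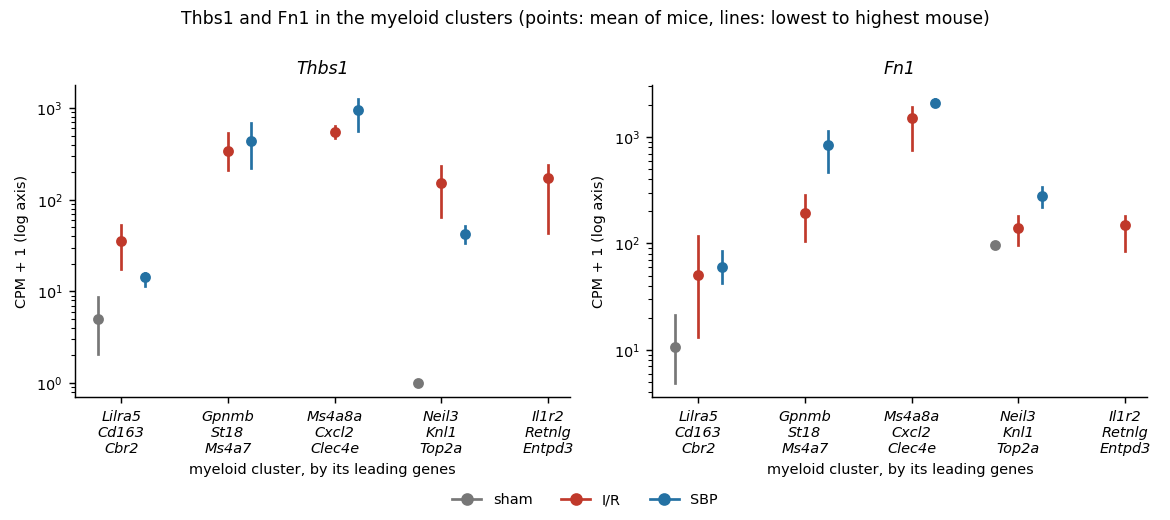
Thbs1 and Fn1 in plain CPM in the myeloid clusters, named by their leading genes, with a point for the mean of the mice of a group and a line from the lowest to the highest mouse, on a log axis (CPM + 1). The cluster led by Ms4a8a, Cxcl2 and Clec4e holds 1505 CPM of Fn1 on average in I/R and 2090 CPM in SBP mice.

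The myeloid cells of the groups were spread differently over the clusters. The cluster led by Lilra5, Cd163 and Cbr2 held 1707 sham, 886 I/R and 1032 SBP nuclei. The cluster led by Ms4a8a, Cxcl2 and Clec4e held 18 sham, 1312 I/R and 416 SBP nuclei. Among the myeloid clusters, the cluster led by Lilra5, Cd163 and Cbr2 held little of either gene, with a mean of 3.99 CPM of Thbs1 in sham mice, 34.9 in I/R mice and 13.4 in SBP mice. The cluster led by Gpnmb, St18 and Ms4a7, which held 9 sham, 2047 I/R and 1248 SBP nuclei, reached 339 ± 174 CPM of Thbs1 in I/R and 439 ± 232 in SBP mice. Its Fn1 stood at 192 ± 89.6 CPM in I/R and 841 ± 340 CPM in SBP mice (n = 3 each). The cluster led by Ms4a8a, Cxcl2 and Clec4e held the highest levels, with 553 ± 86 CPM of Thbs1 and 1505 ± 659 CPM of Fn1 in I/R mice and 958 ± 358 and 2090 ± 160 CPM in SBP mice. Of its 1312 I/R nuclei, 1081 were from 1 mouse. The cluster led by Il1r2 and Retnlg, neutrophil genes, held 170.04 CPM of Thbs1 and 148 CPM of Fn1 in I/R. It also held 150 ± 81.3 CPM of Tnc and 189 ± 201 CPM of Postn, the highest means among the myeloid clusters in I/R. T and B cells held 171 CPM of Fn1 in I/R. The part of RNA from other cells in these values was not tested. Differences between I/R and SBP within clusters were not tested, and clusters differed in which mice filled them.

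The other myeloid calls were lower in level. Tnc stood at 1.89, 4.64 and 0.764 CPM in sham, 49.2, 31.1 and 15.4 CPM in I/R and 24.4, 23.1 and 21.4 CPM in SBP myeloid cells, all above sham (I/R 3.28 ± 0.45, adjusted p = 0.00074). Postn stood at 5.66, 5.57 and 2.29 CPM in sham and 59.9, 24.5 and 14.5 CPM in I/R mice, without overlap (2.46 ± 0.45, adjusted p = 0.0034). Sparc stood at 34.0, 46.4 and 43.6 CPM in sham and 106, 80.8 and 50.7 CPM in I/R mice (0.87 ± 0.25, adjusted p = 0.033). Thbs2 (1.93 ± 0.66, adjusted p = 0.064), Ccn2 (1.74 ± 0.70, adjusted p = 0.12) and Ccn1 (1.10 ± 0.53, adjusted p = 0.17) were not called. Without sham mouse 3, Thbs2 (adjusted p = 0.022) and Ccn2 (adjusted p = 0.0048) were called. With limma-voom, the Postn calls of I/R (adjusted p = 0.095) and SBP (0.19), the Sparc call of I/R (0.083) and the Tnc call of SBP (0.054) were lost. The Sparc call was also lost with the mice of both compared groups only (adjusted p = 0.060) and without any sham mouse, I/R mouse 1, I/R mouse 2 or SBP mouse 2, with adjusted p from 0.051 to 0.11.

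Against sham, SBP called 5 of 8 members in myeloid cells beside 12.8% of all genes: Fn1, Thbs1, Tnc, Postn and Ccn1. Ccn1 stood at 5.66, 0.929 and 6.88 CPM in sham and 25.3, 12.8 and 11.8 CPM in SBP mice, without overlap (1.84 ± 0.53, adjusted p = 0.039), and this call was lost with limma-voom (0.13), with the replicate block (0.061), with cell types from marker scores (0.056) and without sham mouse 1, sham mouse 2 or any SBP mouse (adjusted p from 0.051 to 0.13). Of 7 fibroblast markers, Col1a1 and Col1a2 were called higher in I/R myeloid cells, and the summed level of all 7 ranged from 581 to 811 CPM in sham and from 700 to 951 CPM in I/R, with no marker at 0. All 6 cardiomyocyte markers fell in myeloid cells, from 5822 to 6429 CPM in sham to 1762 to 2710 CPM in I/R. Their part in the Tnc, Postn and Sparc values of these cells was not tested.

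In endothelial cells, Tnc and Thbs1 rose. Of 8 tested members these 2 were called in I/R, beside 3.06% of 12218 genes, and the same 2 in SBP against sham, beside 1.9%. Tnc stood at 6.76, 10.2 and 2.46 CPM in sham, 73.6, 50.2 and 24.8 CPM in I/R and 49.7, 50.9 and 46.0 CPM in SBP mice, without overlap to sham (I/R 2.79 ± 0.44, adjusted p = 0.012). Its I/R call was lost without I/R mouse 2 (adjusted p = 0.051) and its SBP call without SBP mouse 3 (adjusted p = 0.053). Thbs1, an inhibitor of angiogenesis, stood at 6.19, 2.29 and 5.75 CPM in sham, 31.9, 35.9 and 21.96 CPM in I/R and 20.4, 19.5 and 16.6 CPM in SBP mice. All injured mice lay above sham. In I/R against sham the groups did not overlap for 4 of 8 members and 21.0% of all genes. The SBP mice lay below every I/R mouse in 1 of 8 members, Thbs1, and 9.29% of all genes had no overlap in that comparison. The log2 value was 2.48 ± 0.31 for I/R (adjusted p = 0.0032), 1.86 ± 0.31 for SBP against sham (adjusted p = 0.012) and -0.62 ± 0.31 for SBP against I/R, which was not called. Without SBP mouse 1 the SBP against sham call was lost (adjusted p = 0.057). By plain CPM, T and B cells held 49.1 CPM of Tnc and 46.2 CPM of Thbs1 in I/R and 31.3 CPM of each in SBP mice (exact Poisson interval 14.3 to 59.3 for the latter). The endothelial Tnc level was 10.7% of the fibroblast level in I/R, against 20.2% for the 7 fibroblast markers, and that of Thbs1 53.6%. The part of RNA from other cells in these endothelial values was not tested.

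Fn1 in endothelial cells stood at 44.5, 61.9 and 30.4 CPM in sham and 188, 127 and 51.4 CPM in I/R mice, with every I/R mouse but the third above sham (1.27 ± 0.41, adjusted p = 0.13), and without that mouse it was called (adjusted p = 0.0079). Postn (1.40 ± 0.50), Thbs2 (1.27 ± 0.45), Ccn2 (1.26 ± 0.47), Sparc (0.58 ± 0.18) and Ccn1 (0.51 ± 0.32) were not called in I/R, with adjusted p from 0.12 to 0.44. Thbs4 was too low to be tested in endothelial or myeloid cells. By plain CPM over endothelial subtypes named from markers, arterial cells held 204 CPM of Fn1 in sham and 302 in I/R mice. Ccn1 stood at means of 22.3, 75.2 and 180 CPM in arterial cells of sham, I/R and SBP mice, and at 40.1, 11.8 and 15.8 CPM in endocardial cells. Lymphatic cells held 59.3 CPM of Tnc in sham, against 6.97 in capillary cells and 0.277 in endocardial cells. Arterial nuclei numbered 70 to 128 per mouse and lymphatic nuclei 56 to 119, at medians of 1290 and 1843 UMIs per nucleus. Low means in these subtypes rest on few UMIs, and no test was run on the subtypes. In sham hearts endothelial cells held 49.2% of the Tnc UMIs and fibroblasts 31.0%, and in I/R hearts fibroblasts held 85.3% and endothelial cells 5.62%. The sham shares rested on 96 Tnc UMIs over the sham mice, 49 of them in endothelial cells and 27 in fibroblasts.

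In cardiomyocytes, Tnc and Thbs1 were the 2 of 9 members called in I/R, beside 0.829% of 12910 genes, and Tnc the 1 called in SBP against sham, beside 0.139%. Tnc stood at 0.380, 0.565 and 0 CPM in sham, 17.8, 10.1 and 4.70 CPM in I/R and 12.9, 6.13 and 10.1 CPM in SBP mice, without overlap to sham (I/R 3.03 ± 0.41, adjusted p = 0.0084). The I/R call was lost with limma-voom (adjusted p = 0.090) and without sham mouse 3 (adjusted p = 0.061), and the SBP call with limma-voom (0.13), with a pseudocount of 5 (0.098) and without any sham mouse, SBP mouse 1 or SBP mouse 3 (adjusted p from 0.070 to 0.13). Thbs1 stood at 1.52, 0.282 and 1.49 CPM in sham, 9.74, 10.6 and 6.99 CPM in I/R and 5.39, 6.42 and 2.65 CPM in SBP mice. It rose in I/R (2.32 ± 0.35, adjusted p = 0.014), a call lost without sham mouse 2, sham mouse 3 or I/R mouse 2 (adjusted p from 0.054 to 0.072). All SBP mice lay below all I/R mice, at -0.84 ± 0.35, which was not called, and it was the 1 of 9 members without overlap there, beside 5.52% of all genes. By plain CPM, the cardiomyocyte Tnc level was 2.31% of that of the fibroblasts of the same mouse, against 5.56% for the 7 fibroblast markers, of which Col1a1 and Col1a2 were called higher in I/R (all 7 summed to 253 to 258 CPM in sham and 293 to 370 CPM in I/R, none at 0). In the endothelial cells the 7 summed to 838 to 1088 CPM in sham and 1036 to 1442 CPM in I/R, and the same 2 were called. Their part in these Tnc values was not tested. By plain CPM, T and B cells held 46.2 CPM of Thbs1 in I/R (exact Poisson interval 26.4 to 75.1) and 31.3 CPM in SBP mice. The part of RNA from other cells in the cardiomyocyte Thbs1 values was not tested.

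Ccn1 and Thbs4 had their highest mean share of sham UMIs in cardiomyocytes. Ccn1 stood at 16.9, 13.7 and 18.9 CPM in sham, 29.5, 102 and 50.8 CPM in I/R and 75.5, 26.3 and 37.9 CPM in SBP mice, all above sham but spread widely (I/R 1.65 ± 0.44, adjusted p = 0.14). Ccn2 stood at 9.11, 8.05 and 11.2 CPM in sham, 25.97, 107 and 26.99 CPM in I/R and 131, 31.2 and 24.5 CPM in SBP mice (I/R 2.06 ± 0.64, adjusted p = 0.20). Again no I/R or SBP mouse lay in the sham range, and neither gene passed the test. In cardiomyocytes, 8 of 9 members showed no overlap in I/R against sham, beside 16.4% of all genes. In SBP against sham it was also 8 of 9, beside 23.2%. I/R mouse 2 and SBP mouse 1 were the highest in both genes, and Ccn1 was called in I/R without I/R mouse 1 (adjusted p = 0.021). Fn1 (2.23 ± 0.45, adjusted p = 0.056) and Postn (1.96 ± 0.43, adjusted p = 0.07) were not called, but were without I/R mouse 1 or without I/R mouse 3, with adjusted p of 0.0047 to 0.049. Fn1 was also called with plain CPM, a pseudocount of 0.5, no filter on low values and the replicate block (adjusted p from 0.021 to 0.049). Sparc (0.91 ± 0.22, adjusted p = 0.092) and Thbs2 (1.09 ± 0.36, adjusted p = 0.21) were not called. Cardiomyocytes held 53.4% of the Ccn1 UMIs in sham mice (38.3% to 70.6% over the mice, with 8.73% to 42.7% in fibroblasts), 59.6% in I/R mice and 38.5% in SBP mice. Of the UMIs of all genes, they held 5415559 of 10256168 in sham mouse 1 and 6517986 of 13709744 in sham mouse 2. In sham mouse 3 they held 10156487 of 17579334. The sham share of Ccn1 was thus close to the share of all UMIs. By level, sham Ccn1 averaged 16.5 CPM in cardiomyocytes, 19.9 in endothelial cells and 30.1 in fibroblasts. Thbs4 UMIs also came mainly from cardiomyocytes in sham (71.8%), with a level of 2.28, 2.12 and 2.48 CPM there and no change called in I/R (0.01 ± 0.37, adjusted p = 0.99). That share rested on 72 Thbs4 UMIs over the sham mice, 52 of them in cardiomyocytes.

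**Figure D4:**
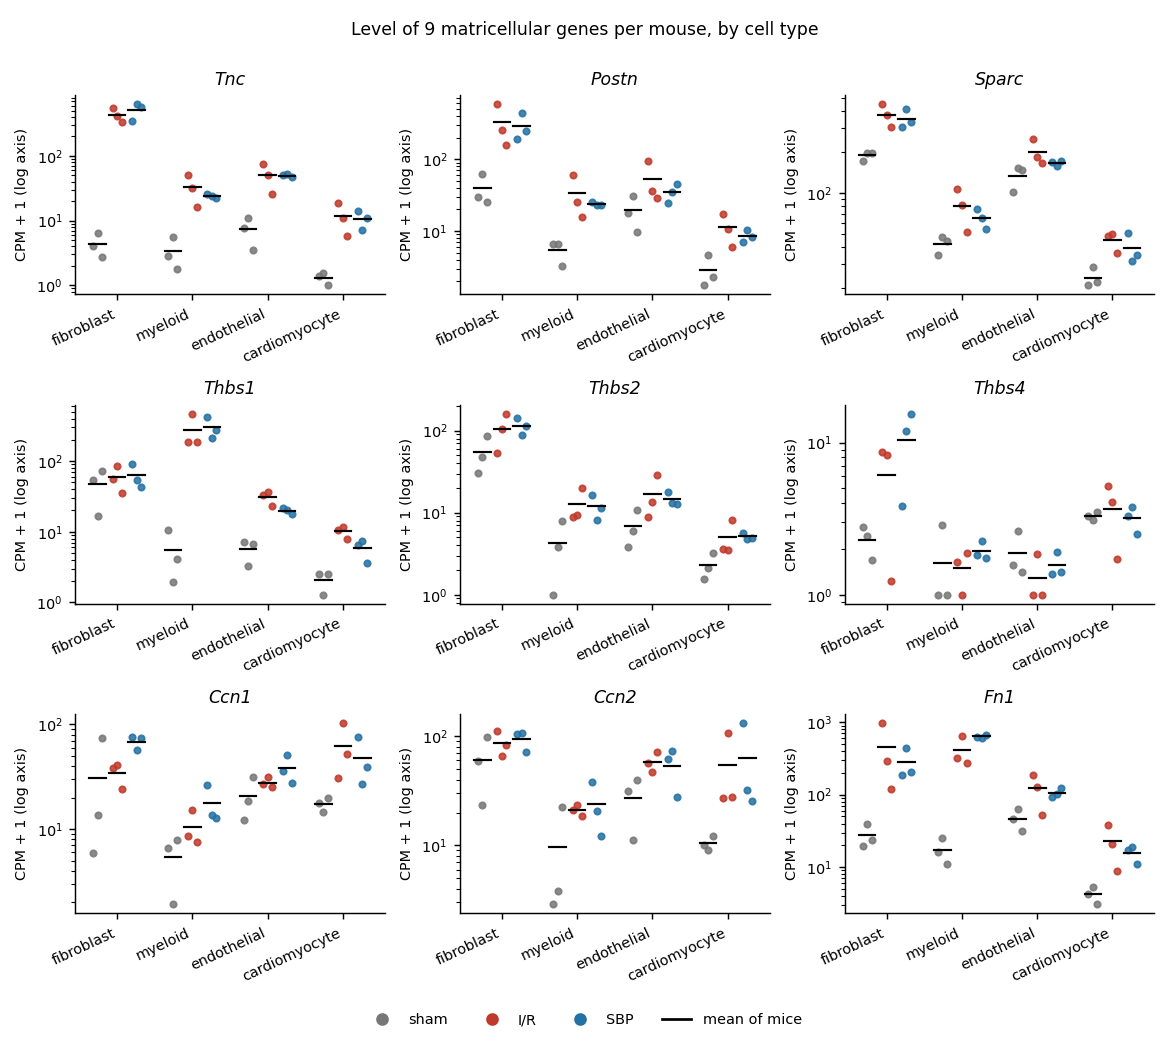
Level of each gene in CPM (log axis, CPM + 1) in fibroblasts, cardiomyocytes, endothelial and myeloid cells, 1 point per mouse, coloured by group, with a bar for the mean of the mice. Tnc lies highest in fibroblasts of injured hearts (333 to 626 CPM), and Thbs1 in their myeloid cells (183 to 467 CPM).

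Summed over all nuclei of a mouse, 5 of 9 members were called higher in I/R (beside 10.8% of 16044 genes) and 5 of 9 in SBP against sham (beside 2.97%). Tnc stood at 3.02, 3.95 and 0.743 CPM in sham, 149, 121 and 86.5 CPM in I/R and 111, 166 and 176 CPM in SBP mice (I/R 5.17 ± 0.37, adjusted p = 0.00021). Fn1 (3.19 ± 0.50, adjusted p = 0.0081), Thbs1 (2.68 ± 0.51, adjusted p = 0.015), Postn (2.58 ± 0.47, adjusted p = 0.014) and Sparc (0.86 ± 0.15, adjusted p = 0.011) were also called. Postn and Sparc lost the I/R call without sham mouse 3 (adjusted p = 0.058 and 0.051), and Thbs2 gained one without I/R mouse 1 (adjusted p = 0.025). In I/R against sham, Thbs2, Ccn1, Ccn2 and Thbs4 were not called, with log2 changes of 1.17, 0.97, 1.26 and 0.09, and the sign of Thbs4 turned without I/R mouse 1 (-0.19), without I/R mouse 2 (-0.13) and with limma-voom (-0.09). In SBP against sham, Tnc kept its call without any single mouse, whereas Fn1, Postn and Sparc lost theirs without sham mouse 1, sham mouse 3 or any SBP mouse, and Thbs1 without any sham or SBP mouse (adjusted p from 0.058 to 0.14). In that contrast Thbs1 was also lost with limma-voom (0.061) and the replicate block (0.077), and Sparc with the block (0.051). With the mice of sham and SBP only, 7 members were called, with Thbs2 (adjusted p = 0.024) and Ccn1 (0.048) added, and Thbs2 was also called without I/R mouse 1 (0.032) or I/R mouse 3 (0.045).

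SBP against I/R gave no call for any of the 9 genes in any cell type. With limma, 0 of 16044 genes were called over all nuclei, with 697 at an unadjusted p under 0.05, and 0 (0%) in fibroblasts (466), cardiomyocytes (275), endothelial cells (613) and myeloid cells (424), and limma-voom called 0 as well. Thbs1 in cardiomyocytes was the 1 member with an unadjusted p under 0.05. Among fibroblasts, Ccn1 showed no overlap between SBP (55.7 to 74.4 CPM) and I/R mice (23.1 to 40.4 CPM), at 1.01 ± 0.75, and in other fibroblasts, where SBP and I/R nuclei lay in different clusters, the ranges were 70.5 to 97.7 and 17.4 to 42.6 CPM, at 1.62 ± 0.75. It was the 1 of 9 members without overlap in fibroblasts and 1 of 8 in other fibroblasts, where 8.32% and 8.38% of all genes had none. In activated fibroblasts Ccn1 had a mean of 39.1 CPM in SBP and 50.3 CPM in I/R mice, whose ranges overlapped. The share of fibroblasts with Ccn1 after thinning was 5.10% ± 0.35 in SBP and 2.71% ± 0.94 in I/R mice (exact permutation p = 0.1). Sham mouse 3 held 72.8 CPM. Myeloid Fn1 gave 0.73 ± 0.34, and fibroblast Tnc, Postn, Sparc and Fn1 gave 0.23 ± 0.32, -0.05 ± 0.50, -0.10 ± 0.17 and -0.32 ± 0.69.

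Other matricellular genes were taken from a list of 22. In fibroblasts 18 were tested, 5 rose in I/R and 1 fell, beside 11.5% of all genes called. Osteopontin (Spp1) had no UMI in any sham mouse and 38.1 to 369 CPM in the I/R mice, the Wnt-induced Ccn4 from 1.03 to 28.0 CPM (3.82 on the log2 scale) and galectin-3 (Lgals3) from 2.25 to 43.5 CPM (3.74), and tenascin-W (Tnn) rose by 1.98. The gene that fell, tenascin-X (Tnxb), is named after its value was seen, and fell by 0.98 on the log2 scale. Spp1 was a leading gene, with Ctss, Ctsd, Ctsb and Lyz2, which are known from macrophages, of a fibroblast cluster of which I/R mouse 1 gave 92.3%. Lgals3 stood at 221 to 484 CPM in I/R myeloid cells and at 29.9 to 63.1 CPM in I/R fibroblasts, and 2 of 10 myeloid markers rose in the fibroblast sums, whose part was not tested. In myeloid cells (17.8% of all genes called) 4 of 10 rose and none fell, namely Spp1 (no UMI in sham, 91.1 to 964 CPM in I/R), Lgals3 (3.19), Tgfbi (1.31) and Lgals1 (1.00). In endothelial cells 4 of 16 rose (3.06% called), in cardiomyocytes 3 of 16 (0.829%), and over all nuclei 4 of 19 rose and 1 fell (10.8%). The median log2 change of the list in fibroblasts was 0.43, against 0.01 over all genes. It was 0.47 in cardiomyocytes, 0.13 in endothelial cells and 0.35 over all nuclei. In myeloid cells it was below 0, at -0.40, against 0.03 over all genes.

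Most receptors of these proteins, integrins, syndecans, Lrp1 and others, were not called. In fibroblasts 20 of 26 were not called, beside 11.5% of all genes called, and 4 rose, with Itgam at 2.48, Sdc1 at 2.11 and Itgb2 at 1.71 on the log2 scale, and 2 fell, with Itga9, a receptor for tenascin-C, at -1.16. Itgam and Itgb2 form a leukocyte integrin, and 2 of 10 myeloid markers rose in the same fibroblast sums, whose part was not tested. In myeloid cells, where 17.8% of all genes were called, 5 of 21 rose, with Itgam at 1.90 and the thrombospondin receptor Lrp1 at 1.69, and 4 fell, with Itga8 at -2.59 and Itga9 at -1.60. In endothelial cells 5 of 25 rose and 1 fell (3.06% of all genes called), and in cardiomyocytes 2 of 23 rose (0.829%). Over all nuclei 8 of 26 rose and 3 fell (10.8%).

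Genes of the YAP/TEAD and SRF axis, which drives CCN gene transcription, mostly did not pass. In fibroblasts 0 of 17 rose and 1 fell, beside 11.5% of all genes called. It was Myocd, a gene of cardiac and smooth muscle, by 1.73, in sums in which all 6 cardiomyocyte markers fell, and their part was not tested. In myeloid cells (17.8% called), where the 6 markers fell too, 1 of 13 rose (Mrtfa, 0.56) and 3 fell (Myocd by 1.79, Axl by 1.60, Wwtr1 by 0.86). In endothelial cells 0 of 17 rose and 1 fell (3.06% called). In SBP against I/R no gene of the 3 lists was called in any cell type tested.

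Over the 9 mice, the fibroblast profiles most like each member by Pearson's r of log2 levels among 13075 genes were Cthrc1 (0.988), Rad18 (0.988) and Ccn4 (0.986) for Tnc, Mcm2 (0.996) for Postn, Col3a1 (0.994) for Sparc and Actn1 (0.996) for Fn1. For Thbs1, Thbs2 and Thbs4 they were Mtmr2 (0.974), Aldh1l1 (0.971) and Tmed3 (0.932), and for Ccn1 and Ccn2 Map2k7 (0.9499) and Hcfc2 (0.945). The mice fall into sham and injured groups, and the points share libraries and depth, so the values are descriptions without a test.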

How the data were processed

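Nuclei of 9 frozen hearts were sequenced with a 3′ droplet method. According to the study's methods and the submitters' processing notes, reads were counted with Cell Ranger (4.0 in the notes) and STAR against GRCm38, samples were down-sampled to a like depth, nuclei were filtered on genes and mitochondrial share, mitochondrial genes were dropped and Seurat (3.2.0 in the notes) was used, with DESeq2 for the authors' own comparisons. What the authors deposited is a natural log, ln(1 + x), where x is the UMI number of a gene in a nucleus scaled to a total of 10000. Whole UMIs were recovered from the smallest value of each nucleus, and over 99.999% of values came out within 0.1 of a whole number. The tables hold 49171 nuclei, which is not the number of cells that the study's text gives. The depth of 10329520 to 18205985 UMIs per mouse limits the lowest levels that can be told apart.

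Doublets were scored with Scrublet, which marked 85 nuclei (0.173%). A caller that marks so few has not worked, so that doublets remain possible in the tested nuclei. Nuclei were clustered (2000 variable genes, 30 principal components, 20 neighbours, Leiden resolution 0.8) with Scanpy 1.11.5 and leidenalg 0.10.2. No correction for differences between samples was applied before clustering, whereas the study's methods name a batch correction. Fibroblasts were clustered again without the 9 genes (20 components, resolution 0.6). Clusters were named by the list with the highest mean log2 fold among lists with at least 3 markers found in over 10% of nuclei. That fold had to be over 0.5. The cluster of 153 nuclei led by Klra8, Klre1 and Ncr1 met this for T cells but was left unnamed, as its leading genes went against the name. A fibroblast state, activated or adventitial, needed the same numbers for its own list, with a fold above that of the other cell types' lists. The resting fibroblast and cell cycle lists were not used for states. Names rebuilt here may differ from those of the study.

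UMIs were summed per mouse and cell type where a mouse had 20 nuclei, scaled with TMM factors and tested as log2(CPM + 1) with limma 3.58.1 (trend, robust, R 4.3.3) over all mice in 1 fit. A gene was tested if at least 3 samples reached the CPM that 10 UMIs give in the median library, with 15 UMIs in all. The pseudocount understates changes of low genes. A count model such as the study's DESeq2 was not run, as the deposited unit is a natural log. The recovered UMIs were fitted with limma-voom as an alternative. Shares of nuclei were compared with exact permutation tests in SciPy 1.17.1. Alternatives covered scaling, pseudocount, filter, limma-voom, the replicate number as a block, mice left out, doublets, cell type calls, fibroblast resolution and thinning.

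The 9 genes and the gene lists were chosen with earlier results of these data known. The test of the difference between myeloid cells and fibroblasts was added after seeing the data. All 9 genes were named in each comparison, and from each list up to 4 genes called in I/R against sham with the largest log2 change per cell type. The 3 most alike genes by Pearson's r in fibroblasts were found for each gene, of which all 3 are named for Tnc and the first for the others. The labels do not say more of the mice than their group and number, and p-values measure the spread between these mice.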

Additional observations from a re-analysis of the deposited data

Results flagged for a closer look

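The response of Thbs1 to injury differed between myeloid cells and fibroblasts. In a limma fit of the difference of log2 levels between both cell types within each mouse, the I/R against sham effect was 5.41 larger in myeloid cells, and the SBP against sham effect 5.49 larger. Tnc differed in the opposite direction, with I/R and SBP effects of -3.39 and -3.94 in myeloid cells minus fibroblasts. All 4 differences were past the threshold, and they held in each of the 9 fits without a single mouse. Sham myeloid nuclei lay mostly in the cluster led by Lilra5, Cd163 and Cbr2 (1707 nuclei), in which Thbs1 had a mean of 3.99 CPM for sham mice and 34.9 CPM for I/R mice, and most I/R myeloid nuclei lay in others, whose part in the difference was not tested. The test was added after seeing the data.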

How the results depend on the processing

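Of the alternative fits of single genes, 3387 kept the side of the threshold, 39 passed it newly and 67 lost it. In 0 fits did a called value turn its direction. Values not called in either fit count among the 3387 even where their sign turned. For counts of members called, limma-voom gave 1 in cardiomyocytes (I/R against sham; 2 in the fit reported) and 0 (SBP against sham), 3 and 2 in myeloid cells and, for SBP, 3 in fibroblasts and 4 over all nuclei. In cardiomyocytes SBP against sham gave 0 with a pseudocount of 5 and 3 with the mice of 2 groups only. The cause was not tested. Leaving out single mice, the counts in I/R and SBP against sham ranged from 3 to 6 and 1 to 6 over all nuclei, 4 to 5 and 2 to 5 in fibroblasts, 0 to 5 and 0 to 3 in cardiomyocytes, 1 to 3 and 1 to 3 in endothelial cells, 4 to 6 and 4 to 7 in myeloid cells and, for I/R, 1 to 2 in other fibroblasts. In SBP against I/R they were 0 throughout.

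In fibroblasts the deviations of mice with the same replicate number correlated at -0.23 to 0.30 (mean 0.02). For mice with other numbers they correlated at -0.22 to 0.37 (mean -0.01). No pairing by replicate number was seen, and 9 pairs with the same number cannot exclude a weak one. With the replicate block, 3 members were called over all nuclei for SBP against sham, in place of 5, 4 in myeloid cells in place of 5, and 3 in cardiomyocytes for I/R in place of 2; the other counts were kept.

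Over all genes, using the mice of 2 groups only gave 956 calls for I/R over all nuclei (1727 in the fit reported), 241 in endothelial cells (374), 60 in cardiomyocytes (107) and 216 in other fibroblasts (444), and 1622, 509 and 381 for SBP against sham over all nuclei (477), endothelial cells (232) and cardiomyocytes (18). limma-voom gave 267 and 457 for SBP over all nuclei and fibroblasts (770), and 53 and 0 in cardiomyocytes. The block gave 237, 137 and 11 for SBP over all nuclei, endothelial cells and cardiomyocytes, and 1 for SBP against I/R in fibroblasts. Cell types from marker scores gave 56 for I/R in cardiomyocytes and 445 for the SBP difference between myeloid cells and fibroblasts (736). In cardiomyocytes a pseudocount of 5 gave 69 and 0, and plain CPM 10 for SBP. Adventitial counts ranged from 0 to 56 (17 for I/R against sham) and from 0 to 13 (1 for SBP against I/R) in these fits, and from 0 to 1337 and 0 to 1148 with single mice left out, the highest without I/R mouse 1, which leaves an I/R arm of 1 mouse with 20 nuclei that is assumed to vary like the other groups. With single mice left out, the calls of I/R and SBP against sham ranged from 358 (without sham mouse 3) to 2599 (without I/R mouse 3) and 39 (sham mouse 3) to 1054 (I/R mouse 1) over all nuclei, 823 (sham mouse 3) to 1675 and 355 (SBP mouse 2) to 950 in fibroblasts, 19 (sham mouse 3) to 780 (I/R mouse 1) and 0 to 270 (I/R mouse 1) in cardiomyocytes, 71 (sham mouse 2) to 594 (I/R mouse 3) and 50 (sham mouse 3) to 346 in endothelial cells, 1240 (I/R mouse 2) to 1849 and 587 (SBP mouse 2) to 1674 in myeloid cells and, for I/R, 100 (sham mouse 3) to 1001 (I/R mouse 1) in other fibroblasts. For the difference between myeloid cells and fibroblasts they ranged from 542 (without I/R mouse 2) to 966 and 265 (without SBP mouse 2) to 737, against 1005 and 736. SBP against I/R reached 7 in myeloid cells (without I/R mouse 1), 4 in endothelial cells (I/R mouse 3) and 1 in cardiomyocytes (I/R mouse 2). The shares of all genes printed beside the members move with these counts.

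Without thinning, the shares of nuclei with a UMI differed between I/R and sham by 13.2 percentage points for Tnc, 15.2 for Sparc and 4.63 for Ccn2 in fibroblasts, and by 5.88 for Tnc, 8.54 for Sparc, 1.87 for Thbs2, 1.21 for Ccn1 and 2.72 for Ccn2 in myeloid cells, all larger than after thinning.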

Other observations

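In lymphatic endothelial cells of sham hearts, Tnc stood at 59.3 ± 44.5 CPM (plain CPM, SD, n = 3 mice), and it stood at 82.9 ± 52.6 in I/R and 107.5 ± 35.8 in SBP mice. Lymphatic Fn1 stood at 46.6 ± 39.2 CPM in sham mice, 203 ± 119.95 in I/R mice and 106 ± 33.8 in SBP mice. The ranges of the groups overlapped for Tnc, and no test was run on these 854 nuclei.

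Ccn1 stood at 14.4 ± 5.49 CPM in lymphatic cells of sham mice and at 50.7 ± 10.9 in I/R mice, without overlap, and at 10.95 ± 7.75 and 28.3 ± 13.9 CPM in capillary cells. In endocardial cells its mean was lower in I/R than in sham mice. The share of all genes without overlap in lymphatic cells was not computed. Lymphatic nuclei numbered 56 to 119 per mouse, so that low means rest on few UMIs, and no test was run.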
